A study of Mus musculus with 13 samples.

Results

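H3K27me3 at the genes of the Gata transcription factors was examined in mouse embryonic fibroblasts that expressed a histone H3 mutant with methionine in place of lysine 27 (K27M). The members were the peaks of 2 deposited H3K27me3 lists that overlapped windows on mm9 around Gata2 (chromosome 6, 88.10 to 88.18 Mb), Gata3 (chromosome 2, 9.74 to 9.83 Mb), Gata4 (chromosome 14, 63.76 to 63.92 Mb), Gata5 (chromosome 2, 180.02 to 180.10 Mb) and Gata6 (chromosome 18, 11.00 to 11.11 Mb). This rule found 5 peaks among the 2245 of both lists, 2 of the 1053 called with H3.1K27M and 3 of the 1192 called with H3.3K27M. Gata4 and Gata5 carried a peak in both mutants, where 60.1% of all regions with a peak did, Gata3 in H3.3K27M cells alone, and Gata2 and Gata6 in neither.

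Fibroblasts of the first group stably expressed H3.1K27M, the mutant of the replication-coupled histone H3.1, and those of the second H3.3K27M, the mutant of the replacement histone H3.3. Both mutants were brought in by lentivirus, and the antibody in both groups was against H3K27me3. The labels give 2 replicates for each group but name a single peak list for both, so no spread between replicates could be measured, and no peak below carries an error or a test. Cells without a K27M mutant and the K27R mutants were not analysed here, so the level of the mark in unmodified fibroblasts is not part of the comparison. Peak lists hold no expression values, and the identity of the cells could not be checked against marker genes. Depth is unknown and the lists give no peak height, so the presence and the width of a peak describe where the mark was called and not how much of it was there.

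GATA factors bind DNA through a pair of zinc fingers that recognise the letters GATA. Gata2 and Gata3, with the X-linked Gata1, are best known from blood: Gata2 in stem and progenitor cells, and Gata3 in T cells, where it directs the T helper 2 fate, besides roles in the mammary gland and sympathetic neurons. Gata4, Gata5 and Gata6 act in the heart and in tissues of endodermal origin. H3K27me3 is placed by the Polycomb repressive complex PRC2, typically over CpG-rich promoters of developmental regulators that a cell type does not use, and K27M histones inhibit PRC2.

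Promoter sequences were at hand for 3 of the 5 genes and span the 3 outcomes: Gata5 with a peak in both lists, Gata3 with a peak in the H3.3K27M list, and Gata2 with none. They are the 250 bases before an annotated transcription start in RefSeq, 5′ to 3′ on the strand of the gene, with each CG dinucleotide in capitals. Their positions are on GRCm38.p6, a later build than the mm9 of the peaks, so they were not set against the peak edges. The Gata5 window is chr2:180334680-180334929 on the minus strand, the Gata3 window is chr2:9878601-9878850 on the minus strand, and Gata2 has 2 starts, at chr6:88193641-88193890 and chr6:88198414-88198663 on the plus strand.
Gata5: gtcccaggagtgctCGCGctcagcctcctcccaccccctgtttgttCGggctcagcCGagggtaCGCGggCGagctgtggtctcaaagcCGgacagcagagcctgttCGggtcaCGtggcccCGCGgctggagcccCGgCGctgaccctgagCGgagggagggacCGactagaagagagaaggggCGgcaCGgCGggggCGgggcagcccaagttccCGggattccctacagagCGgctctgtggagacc
Gata3: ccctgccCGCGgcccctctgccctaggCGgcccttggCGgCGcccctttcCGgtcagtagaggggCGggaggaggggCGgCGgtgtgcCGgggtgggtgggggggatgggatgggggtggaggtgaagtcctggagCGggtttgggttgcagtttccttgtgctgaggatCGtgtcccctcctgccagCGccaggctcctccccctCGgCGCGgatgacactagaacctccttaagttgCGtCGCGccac
Gata2, first start: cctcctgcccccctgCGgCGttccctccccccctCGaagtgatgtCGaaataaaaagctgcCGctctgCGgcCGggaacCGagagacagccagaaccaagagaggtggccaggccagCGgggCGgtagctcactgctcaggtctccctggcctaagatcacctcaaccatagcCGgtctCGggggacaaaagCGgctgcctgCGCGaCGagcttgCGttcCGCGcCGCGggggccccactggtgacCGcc
Gata2, second start: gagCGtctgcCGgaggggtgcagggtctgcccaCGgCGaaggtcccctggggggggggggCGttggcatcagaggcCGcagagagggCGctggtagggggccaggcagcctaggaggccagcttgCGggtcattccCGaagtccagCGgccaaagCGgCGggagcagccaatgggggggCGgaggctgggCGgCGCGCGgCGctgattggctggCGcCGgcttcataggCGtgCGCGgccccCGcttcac

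All 4 windows were rich in CG dinucleotides, whether or not a peak was called in the larger window around the gene. Gata5 had 22 and a GC content of 70.0%, Gata3 had 19 and 70.0%, and the Gata2 windows had 22 and 24 with 67.2% and 74.0%. The median over the 32851 promoter windows of the table was 6, and 80.3% of windows had fewer than Gata3, the lowest of the 4. The letters GATAA, searched on both strands, occurred in none of the 4 windows, and 22.6% of all windows held them. That share is not a like background, because the median GC content of all windows was 52.4%, lower than in each of the 4.

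The peaks within the windows took up a limited part of each. At Gata4 the H3.1K27M peak filled 25.9% of the window and the H3.3K27M peak 28.4%. At Gata5 these shares were 17.0% and 13.5%, and at Gata3 the H3.3K27M peak filled 19.8%. No member peak reached a window edge: the smallest distance was 9.2 kb, at the right edge of the Gata3 window. The nearest peaks left out by the rule lay to the right of the Gata5 window, 17.2 kb away in the H3.1K27M list and 19.2 kb away in the H3.3K27M list. Where the genes lie within these windows on mm9 was not checked, because the gene table used here describes the later build.

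**Figure D1:**
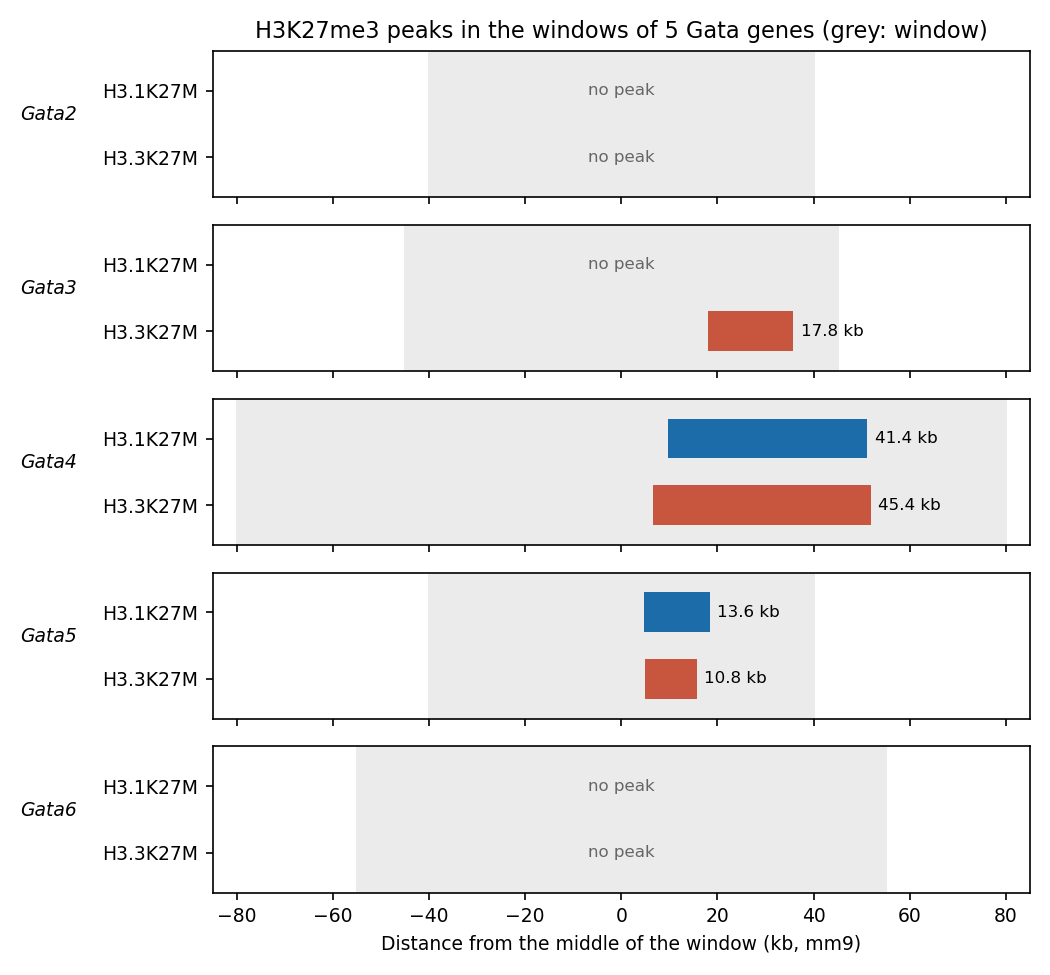
Peaks of the H3.1K27M list (blue) and the H3.3K27M list (red) in each of the 5 windows (grey), against the distance from the middle of the window in kb on mm9, with peak widths in kb. Gata4 has the widest peaks, 41.4 and 45.4 kb, Gata5 is the only locus wider in H3.1K27M cells, Gata3 has a peak in H3.3K27M cells alone, and Gata2 and Gata6 have none.

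The window of Gata4, a factor required for heart formation, held the widest H3K27me3 peaks among the windows examined. In H3.1K27M cells its peak ran from 63849801 to 63891199 on chromosome 14 and was 41.4 kb wide. In H3.3K27M cells it ran from 63846601 to 63891999 and was 45.4 kb wide. Each was the 11th widest peak of its list, and they were 7.39 and 6.31 times the list medians of 5.6 and 7.2 kb. The H3.1K27M peak lay wholly inside the H3.3K27M peak, which reached 3.2 kb further on the left and 0.8 kb further on the right. This nesting held in 61.3% of the 807 regions with 1 peak of each list.

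The Gata4 widths differed little between the mutants. On the log2 scale the covered length with H3.3K27M exceeded that with H3.1K27M by 0.13, a 1.10-fold difference, against a median of 0.33 (SD 0.60) over the 831 regions with peaks of both lists. A region here is a group of peaks joined by overlaps of at least 1 bp. Among the 50 shared regions closest to Gata4 in size, with mean covered lengths of 28.2 to 62.9 kb, the median was 0.20 (quartiles -0.03 and 0.39), and 21 had a lower ratio than Gata4. Gata4 thus sat inside the range of equally broad domains. In RefSeq its coding neighbours are Fdft1 and Neil2 on the left and Blk and Fam167a on the right. Apart from the Gata4 peaks, few peaks were called in the surroundings. Within 1 Mb of the window there were 2 further regions, both right of it. They were a 3.4 kb peak of the H3.1K27M list and a 6 kb peak of the H3.3K27M list, which did not overlap each other. To the left the nearest H3.1K27M peak, from 60996001 to 60999399, lay 2.76 Mb from the window, and the nearest H3.3K27M peak, from 61890201 to 61895399, lay 1.86 Mb from it.

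Gata5, which acts in the developing heart and gut, went the other way. Its H3.1K27M peak ran from 180064801 to 180078399 on chromosome 2 and was 13.6 kb wide. The H3.3K27M peak ran from 180065001 to 180075799 and was 10.8 kb wide. The H3.1K27M peak was wider than 84.4% of its list and the H3.3K27M peak wider than 73.6% of its own. All of the H3.3K27M peak lay inside the H3.1K27M peak, which reached 0.2 kb further on the left, a single step of the 200 bp grid on which all peaks start, and 2.6 kb further on the right.

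The covered length at Gata5 was 1.26-fold greater in H3.1K27M cells, a log2 ratio of -0.33. Over all shared regions 19.9% leaned towards H3.1K27M in this way and 77.4% towards H3.3K27M, and 75 of 831 regions had a lower ratio than Gata5. Nesting of the H3.3K27M peak inside the H3.1K27M peak at both edges occurred in 6.57% of regions with 1 peak of each list. Of the 50 shared regions closest to Gata5 in size, from 11.1 to 14.9 kb, 6 leaned towards H3.1K27M and 44 towards H3.3K27M, with a median log2 ratio of 0.33, and 3 had a lower ratio than Gata5. Neither Gata4 nor Gata5 differed by 1.5-fold, a size passed by 29.7% of shared regions towards H3.3K27M and by 5.17% towards H3.1K27M. The number of Gata loci past that fold was thus 0 of 2.

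**Figure D2:**
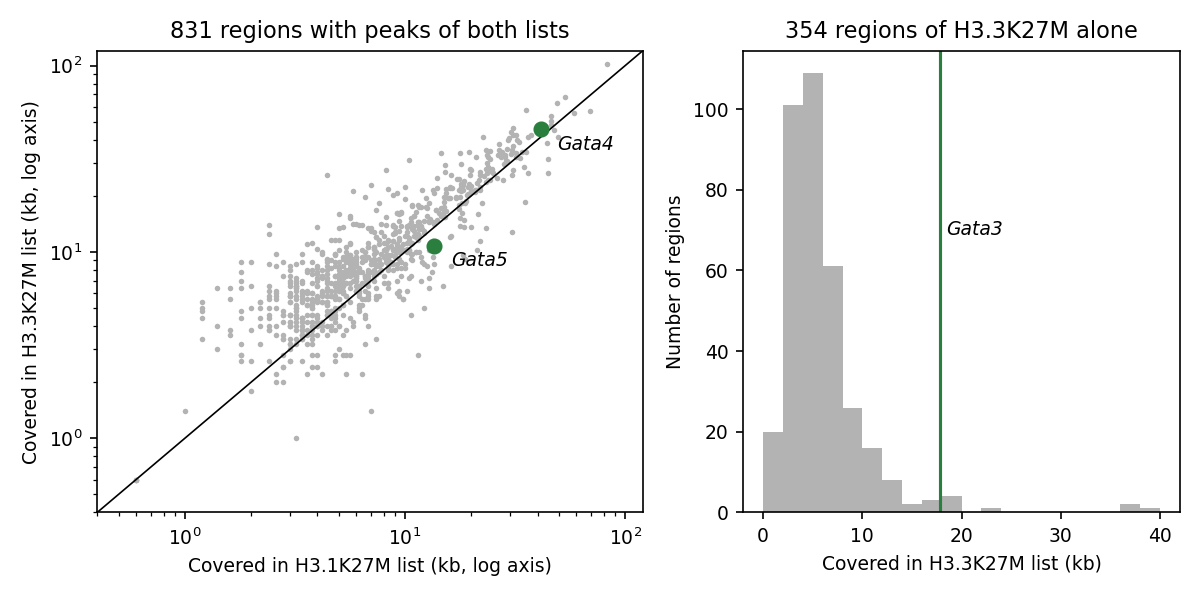
Left, covered length in kb of the 831 shared regions in the H3.3K27M list against the H3.1K27M list, both on log axes, with equality as a line and Gata4 and Gata5 in green. Right, number of regions by covered length in kb for the 354 regions found in the H3.3K27M list alone, with Gata3 at 17.8 kb as a green line. Gata4 lies near the line of equality among the broadest regions, Gata5 below it, and Gata3 in the upper tail.

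Gata3, the T helper 2 regulator, had H3K27me3 called in H3.3K27M cells only. The peak ran from 9803001 to 9820799 on chromosome 2, was 17.8 kb wide and was wider than 86.9% of the H3.3K27M list. Of all 1383 regions, 25.6% were found in the H3.3K27M list alone, and these were usually narrow, with a median of 5 kb. Gata3 ranked 9th by width among these 354 regions, at 3.56 times their median. It was also wider than 82.1% of the H3.3K27M lengths in shared regions, whose median was 8.4 kb. The nearest H3.1K27M peak lay 470.4 kb from it, against a median of 531.3 kb for regions found in the H3.3K27M list alone.

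The absence of an H3.1K27M peak at Gata3 meets a limit of the list. Peaks carry running numbers that follow position, and some numbers are unused. In the H3.1K27M list 1 number is unused between the peaks on either side of Gata3, which end at 5059999 and start at 10291201 and leave 5.23 Mb between them. The H3.3K27M list also has 1 unused number next to Gata3, between its peak ending at 5061399 and the Gata3 peak. The position of an unused number inside such a gap is not recorded, so whether an H3.1K27M call at Gata3 was numbered and left out of the list cannot be told. Of the 354 regions found in the H3.3K27M list alone, 11 face an unused number in this way. At the next pair of peaks on the right, which overlapped, the H3.1K27M peak was 2.6 kb wide and the H3.3K27M peak 9.8 kb. The coding neighbours of Gata3 in RefSeq are Usp6nl and Celf2 on the left and Taf3 and Atp5c1 on the right.

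Gata2, the factor of blood stem and progenitor cells, had no peak in its window in either list. In H3.1K27M cells the nearest peaks lay 414.8 kb to the left (6 kb wide) and 3.18 Mb to the right (5.8 kb wide). In H3.3K27M cells they lay 413.2 kb to the left (9.4 kb wide) and 312.4 kb to the right (5.2 kb wide). The left peaks overlapped each other, while the right H3.3K27M peak had no H3.1K27M partner. The stretch without a peak around Gata2 was 3.67 Mb long in H3.1K27M cells, longer than 82.2% of the gaps between neighbouring peaks of that list, and 0.81 Mb in H3.3K27M cells, longer than 53.4%. These shares count each gap once, although a long gap is more likely to hold a given gene. They therefore do not show that the stretch was unusually long. No running number was unused at Gata2 in either list. Its coding neighbours in RefSeq are Rab7 and Rpn1 on the left and Dnajb8 and Eefsec on the right.

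Gata6, which acts in early endoderm and in the heart, also had no peak. Both lists call other peaks on chromosome 18, 28 with H3.1K27M and 34 with H3.3K27M. The first of them starts at 15308401 in H3.1K27M cells (3 kb wide) and at 15307201 in H3.3K27M cells (7 kb wide), 4.2 Mb to the right of the Gata6 window. Between the start of the chromosome and these peaks neither list holds a call. The running numbers before the first peak of chromosome 18 are continuous in the H3.1K27M list, and 1 is unused in the H3.3K27M list. Its position is not recorded, so whether an H3.3K27M call at Gata6 was numbered and left out cannot be told. Gata5 and Gata6 have similar neighbours in RefSeq, Cables2 and Rbbp8nl left of Gata5 and Rbbp8 and Cables1 right of Gata6, while Abhd3 and Mib1 lie left of Gata6, but of these windows only that of Gata5 held a peak.

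The whole lists covered 8746 kb with H3.1K27M and 11866 kb with H3.3K27M. Over the 5 loci together the H3.1K27M peaks covered 55.0 kb and the H3.3K27M peaks 74.0 kb. Both H3.1K27M peaks overlapped an H3.3K27M peak, where 81.2% of that list did, and 2 of the 3 H3.3K27M peaks overlapped an H3.1K27M peak, where 70.3% of that list did. By length, 94.9% of the H3.1K27M coverage lay inside H3.3K27M peaks and 70.5% of the H3.3K27M coverage inside H3.1K27M peaks, against 84.9% and 62.6% over all peaks. The part common to both lists was 68.0% of the 76.8 kb covered by either, against 56.3% over all peaks. This value depends on which loci are counted, being 34.4% without Gata4 and 88.5% without Gata3. All member peaks were wider than the median of their list, and the shares by length were not set against peaks of like width. Without Gata3, found in the H3.3K27M list alone, the lists covered nearly the same length, 55.0 kb for H3.1K27M and 56.2 kb for H3.3K27M. Gata4 was wider in H3.3K27M cells and Gata5 in H3.1K27M cells, so their differences partly cancelled.

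**Figure D3:**
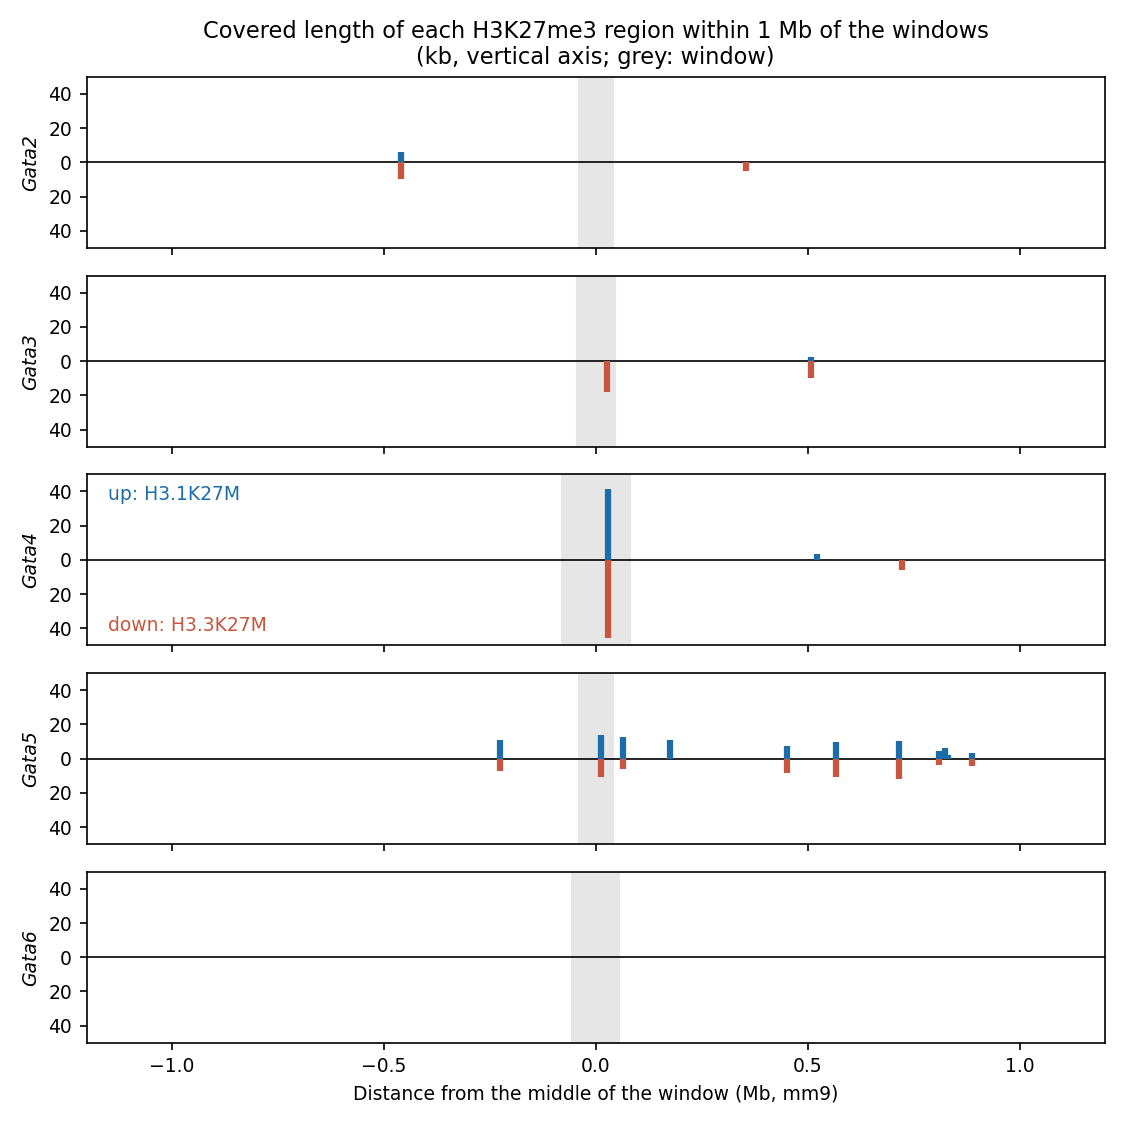
Covered length in kb of every H3K27me3 region within 1 Mb of the 5 windows, upwards for the H3.1K27M list (blue) and downwards for the H3.3K27M list (red), against the distance from the middle of the window in Mb on mm9. Gata5 has 10 further regions, Gata2 and Gata4 have 2, Gata3 has 1 and Gata6 has 0.

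The loci also differed in their surroundings. Gata5 lay in a crowded part of chromosome 2, with 10 further regions within 1 Mb of its window, of which 7 were shared and 3 were in the H3.1K27M list alone. Of all regions 60.1% were shared, 25.6% were in the H3.3K27M list alone, and the rest were in the H3.1K27M list alone. The 10 regions near Gata5 amounted to 78.2 kb with H3.1K27M and 53.6 kb with H3.3K27M. The regions on either side of Gata5 leaned the same way as Gata5 itself. The region to the left, from 179830201 to 179840799, was 10.6 kb with H3.1K27M and 7.4 kb with H3.3K27M, and the region to the right, from 180117201 to 180129999, was 12.8 and 6.4 kb. The next, from 180229201 to 180240199, was an 11 kb peak of the H3.1K27M list alone. Beyond it, up to 1 Mb from the window, 4 shared regions leaned towards H3.3K27M and 1 towards H3.1K27M, and 2 were in the H3.1K27M list alone. In RefSeq the coding neighbours of Gata5 to the right are Slco4a1 and Ntsr1.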

How the data were processed

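H3K27me3 chromatin immunoprecipitation was followed by sequencing, and chromatin was cut with micrococcal nuclease per the labels' protocols. The authors deposited, for the H3K27me3 samples of each K27M mutant, a BED list of peak starts, ends and widths in bp. These positions and widths carry no score, signal or other measurement in the deposited files. The submitters' processing notes name mm9, Bowtie 1.0.0 and deepTools. Not given in the sources used here are the peak caller, its threshold and any pooling of replicates. The number and width of called peaks grow with sequencing depth and with a looser threshold.

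Of 13 samples in 11 groups, those of these 2 lists were analysed. Printed positions count from 1. Whole peaks overlapping a window were taken, and peaks overlapping by at least 1 bp counted as shared. With a single list a group, no test was run. A 1.5-fold difference in covered length served as a call. All 5 genes of the rule, every peak in their windows, the nearest peaks outside and up to 2 coding neighbours on each side in the RefSeq table (GRCm38.p6, names only) are named. The members, windows and comparisons were chosen with earlier results of these data known. The 50 regions of like size, the gaps, the unused numbers and the run of regions near Gata5 were added after the values were seen. Alternatives covered the window, clipping, merging, narrow peaks, the overlap rule and leaving out each locus. Python 3.11.15, pandas 2.3.3, numpy 2.4.6 and matplotlib 3.10.9 were used, and overlaps were checked with bedtools 2.31.1 and tested on simulated data.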

Additional observations from a re-analysis of the deposited data

How the results depend on the processing

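No paired analysis was possible because both replicates of a mutant share 1 list, and leaving out a replicate could not be tried either. Clipping peaks to the windows, merging peaks under 5 kb apart and dropping peaks narrower than the median of their list left the Gata4 and Gata5 width ratios at 0.13 and -0.33 (log2). These alternatives could not change any member peak, nor the counts below. No member peak reached a window edge, and all were wider than their list median. The closest other peak of the same list lay 38.8 kb from a member peak. Widening each window by 50 kb on both sides took in the next region beside Gata5 and gave a log2 ratio of -0.62 there, while the Gata4 ratio did not move. The numbers of loci with a peak, 2 in the H3.1K27M list and 3 in the H3.3K27M list, were the same with widened windows and without the narrow peaks. Widening could not change these numbers either. Where a list had no peak in a window, its closest peak lay at least 312.4 kb away. The numbers of peaks with a partner, 2 in each list, were the same with a reciprocal overlap of 50% and with merging. The common part of the covered length, 68.0%, was 88.5% without Gata3, 34.4% without Gata4 and 65.5% without Gata5. It stayed at 68.0% without Gata2 or Gata6, which had no peak to remove, and with clipping or merging, which could not change it. The unknown depth and threshold of the lists limit each statement that a peak is absent.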

Other observations

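Regions with wider H3K27me3 in H3.1K27M cells followed each other around Gata5 on chromosome 2, a stretch singled out after its values were seen. In order along the chromosome, 7 neighbouring regions from 172996401 to 180240199 each had more H3.1K27M than H3.3K27M coverage, with Gata5 as the fifth of them. They amounted to 59.0 kb with H3.1K27M and 24.6 kb with H3.3K27M. Of these regions 4 had no H3.3K27M peak at all, and 3 of those, between 3.2 and 4 kb wide, lay over 5 Mb to the left of Gata5. No other of the 220 runs of this kind was as long, and 26.2% of all regions had more H3.1K27M coverage. Counting shared regions only, the run at Gata5 held 3 regions, and of 107 such runs 12, that at Gata5 included, held 3 regions and 3 held 4.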
